A study of Mus musculus and Acomys cahirinus with 2 samples.

Results

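Cells that held transcripts of Pparg, a nuclear receptor gene of sebaceous cells, and of Mgst1 but few transcripts of lipid droplet and fatty acid genes were taken from single-cell RNA-seq of adult ear skin. They were chosen by their own counts: a cell barcode needed at least 2871 UMIs (unique molecular identifiers, each standing for a captured RNA molecule) and 200 genes, at least 2 UMIs of Pparg, at least 2 UMIs of Mgst1, and fewer than 10 UMIs of Plin2, Fasn and Acly together per 10000 UMIs. In Mus, mitochondrial genes also had to hold at most 20% of the UMIs. This gate kept 64 of 12461 cells. It kept 22 of 4786 cells of Acomys cahirinus, the spiny mouse, which is 0.460% (95% exact interval 0.288 to 0.695%), and 42 of 7675 cells of Mus musculus, which is 0.547% (0.395 to 0.739%). Both libraries came from skin of adult ears labelled day 0, made from single-cell suspensions with the 10x Chromium method, with 1 library per species. The series' design text speaks of injured ears, and the labels of these libraries name no injury, agent, strain or number of animals. Because each species has 1 library, no difference below carries a test, and species, animal and library cannot be told apart. Intervals are 95% exact intervals on UMIs or cells and cover counting error only.

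Sebaceous glands open into the hair follicle and release sebum when lipid-filled sebocytes burst. The gland is renewed from basal cells at its rim, which divide, leave the basal layer, take up lipid synthesis and fill with droplets. PPARG is a fatty acid-sensing transcription factor that drives lipid storage in adipocytes and is needed for sebocyte differentiation. Mgst1 and Gsta3 encode glutathione transferases, a microsomal and a cytosolic one, which couple glutathione to reactive molecules, and both are used as markers of sebaceous cells.

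The bases before the transcription start of 3 glutathione genes are shown because the gate used Mgst1 and because Gsta3 and Gclm, the regulatory subunit of the enzyme that starts glutathione synthesis, were among the genes highest in the gated cells of both species. The sequences are those of the mouse, from RefSeq on GRCm38.p6, each the 250 bases up to the base before the start, on the plus strand: chr1:21240335-21240584 for Gsta3, chr3:122245307-122245556 for Gclm and chr6:138140277-138140526 for Mgst1. Mgst1 has 2 listed starts, and the rule preferred the start with the most matches to the letters marked below. A match in its window was therefore favoured by that choice. Capitals mark TGACNNNGC, the core letters of the antioxidant response element bound by NRF2, searched on both strands.
Gsta3: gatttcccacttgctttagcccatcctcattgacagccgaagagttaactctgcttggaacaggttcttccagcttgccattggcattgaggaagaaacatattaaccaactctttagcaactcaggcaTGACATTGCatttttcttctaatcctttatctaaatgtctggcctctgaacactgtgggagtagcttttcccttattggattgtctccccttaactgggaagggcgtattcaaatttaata
Gclm: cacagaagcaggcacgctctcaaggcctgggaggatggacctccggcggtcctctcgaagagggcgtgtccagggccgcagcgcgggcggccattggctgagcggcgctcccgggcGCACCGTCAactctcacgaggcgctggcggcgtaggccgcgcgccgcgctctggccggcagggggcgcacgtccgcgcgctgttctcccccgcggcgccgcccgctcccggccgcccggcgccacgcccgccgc
Mgst1: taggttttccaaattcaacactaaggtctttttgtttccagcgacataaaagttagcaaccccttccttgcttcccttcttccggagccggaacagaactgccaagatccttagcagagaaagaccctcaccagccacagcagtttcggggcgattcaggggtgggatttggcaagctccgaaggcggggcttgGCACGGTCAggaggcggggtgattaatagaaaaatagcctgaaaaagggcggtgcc
The marked letters ended 113 bases before the start in Gsta3, on the plus strand, 126 bases before it in Gclm and 48 bases before it in Mgst1, both on the minus strand. In windows of the same length, 11.5% of all 27025 genes with an entry held these letters, against 3 of 21 glutathione transferase genes and 4 of 21 genes of the glutathione and NRF2 list. Of the 12 genes furthest above ungated cells in both species, 9 had an entry and 3 held the letters (Gclm, Gsta3 and Ucp2). A relaxed form of the PPAR direct repeat, searched on both strands, was in none of these 9 windows and in 0.400% of all genes. A match describes letters in a window and is not a bound site, and no spiny mouse sequence was used here.

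The gated cells held 233983 UMIs in Acomys and 633611 UMIs in Mus. Their median was 10144 UMIs and 2286 genes per cell in Acomys, and 12784 UMIs and 2959 genes in Mus. Pparg, as the gate required, was found at 2 to 5 UMIs in Acomys cells and at exactly 2 UMIs in 12 of the 22, and at 2 to 12 UMIs in Mus cells and at exactly 2 UMIs in 20 of the 42. Mitochondrial genes held a median of 4.57% of the UMIs in Mus gated cells, 6.05% in lipid-rich cells and 3.005% in ungated cells, and with a limit of 10% or with none 691 and 688 genes were at least 2-fold apart from ungated cells in Mus, against 687 with the limit of 20%. The gate was close for many cells: 49 Acomys cells and 71 Mus cells missed it by 1 UMI of Pparg alone, and 9 Acomys cells and 1 Mus cell by 1 UMI of Mgst1 alone. The summed lipid genes reached 9.66, 8.77 and 8.52 per 10000 in the 3 Acomys cells just inside the limit and 10.4, 12.3 and 14.0 just outside it. In Mus they reached 8.54, 7.93 and 7.69 just inside and 10.3, 10.6 and 10.9 just outside. Cells outside this limit that passed the other gates, 45 in Acomys and 39 in Mus, are called lipid-rich cells here, and all cells in neither set are called ungated cells (4719 in Acomys, 7594 in Mus). No cell barcode was shared between the gated cells of the libraries, and 34 were shared among all cells. Barcodes of 1 to 10 UMIs, which hold free RNA, gave Pparg at 0.201 per 10000 UMIs in Acomys and 0.0294 in Mus, Mgst1 at 0.457 and 2.22, and Plin2 at 2.29 and 0.779.

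**Figure D1:**
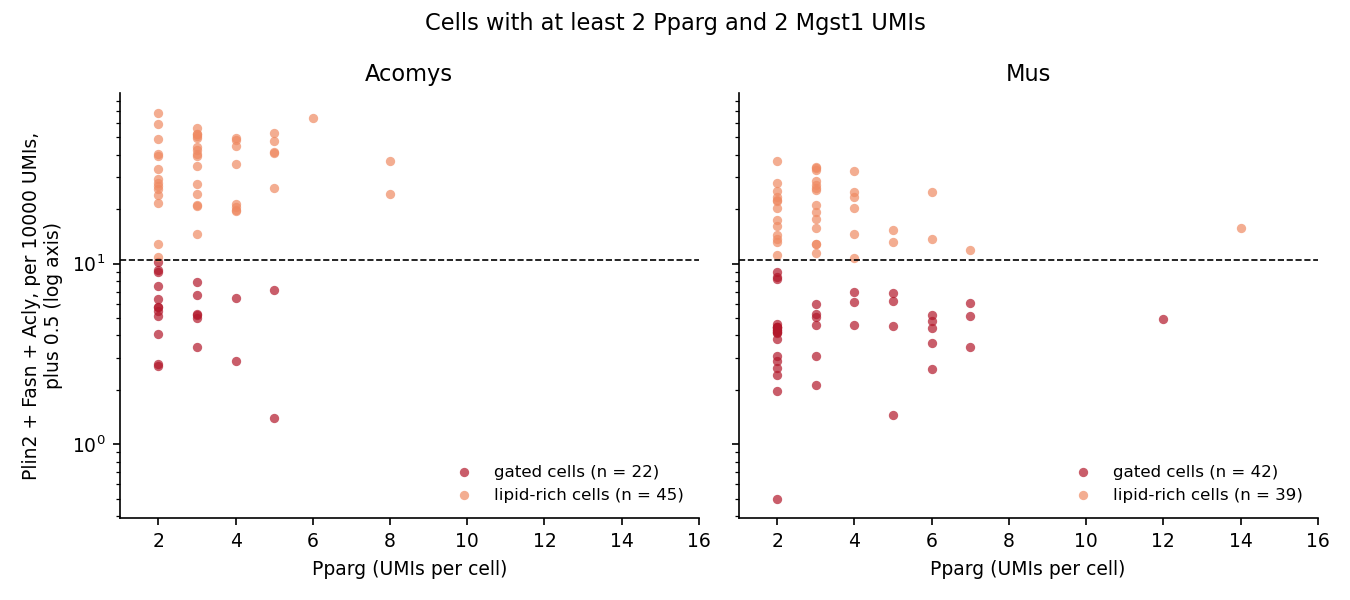
Each point is a cell with at least 2 Pparg and 2 Mgst1 UMIs, placed by its Pparg UMIs (horizontal axis) and by Plin2, Fasn and Acly UMIs per 10000 plus 0.5 (vertical log axis), with Acomys left and Mus right and the dashed line at the limit of 10. Below the line stand the 22 Acomys and 42 Mus gated cells, above it the 45 and 39 lipid-rich cells, and in both species points lie close to the line on either side.

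The gated cells lay together when each library was clustered by itself. The 5 gate genes were not left out of the clustering, so the genes that chose the cells could also help to place them. In Acomys 19 of 22 fell in 1 cluster of 273 cells with Plin2, Ces1d, Ucp2, Ldhb and Acsbg1 among its leading genes, which also held 24 of the 45 lipid-rich cells, and the other 3 fell in a cluster of 180 cells led by Ccnb1, Cdc20 and Ccnb2, genes of mitosis. At a finer resolution of 2, 18 Acomys gated cells lay in a cluster of 208 cells that held only 3 lipid-rich cells. In Mus 34 of 42 fell in 1 cluster of 134 cells led by 1600014C10Rik, Rgcc, Ldhb, Gsta3, Lcn2 and Mgst1, which held 2 of the 39 lipid-rich cells. A further 5 Mus cells lay with 37 lipid-rich cells in a cluster led by Cidea, Elovl6, Cers4 and Scd1, 2 in a cluster with Top2a and Cdk1, and 1 in a cluster of 45 cells led by Dcn and Col3a1, genes of fibroblasts. That last cell held 178 of the 227 fibroblast marker UMIs found in all 42 Mus gated cells, 96 of them from Dcn, and had no UMI of the 3 lipid genes. Among the cells marked as likely doublets by score were 1 Acomys and 2 Mus gated cells. Neither these nor the fibroblast-marked cell were removed.

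Markers of cell types other than keratinocytes summed to few UMIs, apart from those of fibroblasts in Mus, while keratinocyte genes were plentiful. The basal list summed to 4372 CPM (UMIs per 1000000 UMIs) in Acomys and 11927 CPM in Mus gated cells, and the suprabasal list to 11163 and 14686 CPM. The sebocyte markers summed to 1739 and 5305 CPM, below the 3518 CPM of ungated cells in Acomys and above their 2441 CPM in Mus. The Acomys gene list names 16 of 17 basal, 14 of 20 suprabasal and 17 of 19 sebocyte members, so these sums are not comparable between species. Krt14, which it does not name, held 3892 of the 7557 basal UMIs of Mus gated cells. Adipoq, Lep, Retn, Plin1 and Pck1, the defining genes of adipocytes, where Pparg is also high, had no UMI in gated cells of either species, and the adipocyte list summed to 51.3 CPM in Acomys and 15.8 CPM in Mus gated cells, against 244 and 73.8 CPM in ungated cells. Cdh5 and Kdr of endothelium, Csf1r and Adgre1 of macrophages, Cd3e and Trac of T cells and Pmel and Dct of melanocytes were also at 0 in the gated cells of both. Fibroblast markers summed to 115 CPM in Acomys gated cells, with Col3a1 and Pdgfra at 0, and to 358 CPM in Mus gated cells, against 258 and 246 CPM in ungated cells. The label of sebaceous cells rested on Gsta3 in both species and on a wider set of genes in Mus: of the 19 sebocyte markers, 6 of 8 measured were at least 2-fold higher than in ungated cells in Mus (Scd1, Cidea, Far2, Ldhb, Krt79 and Apoc1) and none lower. In Acomys only Ldhb of 5 measured was higher, while Dgat2 and Fabp5 were lower. Whether the cells are immature is not something these counts can show, since the low lipid genes were set by the gate, so they are called gated cells.

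Set against ungated cells of the same library, the gated cells had higher levels of Gsta3, Gclm and several genes of fatty acid oxidation and lower levels of the genes of the cornifying epidermis. A gene was measured in a comparison if both groups together held at least 20 UMIs and the mean of their levels was at least 30 CPM, and was called higher or lower at a ratio of at least 2, computed with a prior count of 0.5. In Acomys 7.72% of 3031 measured genes were higher and 7.89% lower, 15.6% in all. In Mus 9.66% of 3518 genes were higher and 9.86% lower, 19.5% in all. With the ratios centred on genes of at least 50 CPM, 36.7% of the called genes in Acomys and 33.4% in Mus were higher, against 49.5% in each without centring. Among 1956 genes measured in both, 49 were higher in both species, which is 40.8% of the 120 higher in Acomys and 29.3% of the 167 higher in Mus, and 94 were lower in both. Another 5 were higher in Acomys and lower in Mus, and 4 the reverse. The 5 gate genes were left out of every count, and the ratios describe the cells that were chosen by these same libraries.

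Gsta3, the third marker of these cells and not part of the gate, reached 2171 CPM (1986 to 2368) in Acomys gated cells, against 466 CPM in ungated cells, and 163 CPM (133 to 197) in Mus gated cells, against 14.4 CPM. That is 4.66-fold (4.26 to 5.09) higher in Acomys and 11.3-fold (9.14 to 13.8) higher in Mus. All 22 Acomys gated cells held Gsta3, from 4 to 50 UMIs each, and 32 of the 42 Mus cells did, with at most 9 UMIs. After every cell was thinned to 2871 UMIs, 100% of Acomys and 40.5% (25.6 to 56.7%) of Mus gated cells held a Gsta3 UMI, against 48.2% and 4.37% of ungated cells (unthinned 100% and 76.2%, against 63.6% and 11.2%). In cells with at least 3 UMIs of T cell receptor complex genes, which should lack Gsta3, the thinned shares were 34.5% of 29 Acomys cells and 4.17% of 24 Mus cells, at median depths of 4115 and 3738 UMIs before thinning. The gated shares and those of the T cell receptor cells had intervals that did not overlap in either species. It belongs to a family of close copies, and reads that fit several copies may be split or dropped by the counting.

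Gclm followed, at 846 CPM in Acomys gated cells, against 138 CPM in ungated cells, and at 180 CPM in Mus gated cells, against 49.4 CPM, which is 6.15-fold (5.31 to 7.09) and 3.64-fold (2.999 to 4.39) higher. Of the glutathione transferase list, 4 of 7 measured genes were higher and none lower in Acomys (Gsta3, Gstm2, Gstm5 and Gsto1), and 4 of 12 were higher and 2 lower in Mus. In Mus the higher ones were Gsta3, Gstp1, Gstz1 and Mgst2 and the lower ones Gsta1 and Gsta2, so Gsta3 was the member higher in both. Their median log2 ratio was 1.08 in Acomys and 0.18 in Mus, beside 0.15 and 0.19 over all measured genes. The glutathione and NRF2 list had 5 of 17 genes higher in Acomys and 6 of 14 in Mus, none lower, with Gclm and Ces1d higher in both species. Ces1d, a carboxylesterase, stood at 415 CPM in Acomys gated cells, against 65.2 CPM, and at 58.4 CPM in Mus gated cells, against 5.18 CPM. The median log2 ratio of that list was 0.54 in Acomys and 0.62 in Mus.

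Several metabolic genes were higher as well. Ldhb, a lactate dehydrogenase subunit that favours pyruvate, reached 496 CPM in Acomys gated cells, against 72.8 CPM, and 455 CPM in Mus gated cells, against 41.9 CPM, which is 6.81-fold (5.61 to 8.20) and 10.8-fold (9.59 to 12.2) higher. Ucp2, a mitochondrial carrier, was 7.74-fold and 4.20-fold higher, and Idh1, the cytosolic isocitrate dehydrogenase that makes NADPH, 4.49-fold and 5.12-fold higher. Of the mitochondrial fatty acid oxidation list, 7 of 14 measured genes were higher in Acomys and 5 of 14 in Mus, none lower, with Acaa2 and Decr1 higher in both. Acaa2, the last enzyme of the spiral, stood at 915 CPM in Acomys gated cells, against 196 CPM, and at 308 CPM in Mus gated cells, against 139 CPM. The list's median log2 ratio was 0.97 in Acomys and 0.75 in Mus. The sebum lipid list had 1 of 9 genes higher and 2 lower in Acomys and 5 of 12 higher and 2 lower in Mus, with medians of 0.10 and 0.11, below those of all measured genes. Igfbp2, which binds insulin-like growth factors, was 4.87-fold and 6.13-fold higher, and the homeobox gene Irx1 5.597-fold and 10.0-fold higher. Chchd10, Fgfbp1 and Alad were also among the 12 genes furthest above ungated cells in both species, at 3.67-fold to 10.8-fold.

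Regulators of the sebaceous lineage were measured in small numbers. In Mus 5 of 9 were higher, among them Cebpa and Cebpb, which act with PPARG in fat cells, Nfib and Srebf1, the master factor of fatty acid synthesis genes. Cebpb reached 308 CPM in Mus gated cells, against 56.8 CPM. Klf5 was lower, at 15.8 CPM against 182 CPM. In Acomys none of 7 was called: Cebpb stood at 1167 CPM in gated cells, against 651 CPM, a ratio of 1.79 (1.58 to 2.02), and Srebf1 at 85.5 CPM, against 57.4 CPM. Cebpa had no UMI in the 22 Acomys gated cells and was below 1 CPM in Acomys ungated cells, so it could not be compared. Prdm1 and Gata6, named in work on gland progenitors and the duct, had no UMI in gated cells of either species.

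Genes of the suprabasal epidermis were low in gated cells. Krt10, the keratin of cells that have left the basal layer, stood at 3304 CPM in Acomys gated cells, against 31096 CPM in ungated cells, and at 2109 CPM in Mus gated cells, against 16091 CPM, which is 9.41-fold (8.77 to 10.1) and 7.63-fold (7.23 to 8.06) lower. Of the suprabasal list 6 of 7 measured genes were lower in Acomys and 13 of 15 in Mus, none higher, with median log2 ratios of -2.57 and -2.43. Krt1, Krtdap, Klf4, Krt24, Spink5 and Asprv1, all of the differentiating epidermis, were among the 12 genes furthest below ungated cells, at 5.83-fold to 17.0-fold lower. Basal genes were also lower, 3 of 8 in Acomys and 8 of 12 in Mus. Krt5 stood at 2487 CPM in Acomys gated cells, against 4031 CPM, and at 1354 CPM in Mus gated cells, against 3453 CPM. Krt15 was lower in both. The ungated cells mix every other cell type of the ear, so these ratios set the gated cells against that mixture.

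**Figure D2:**
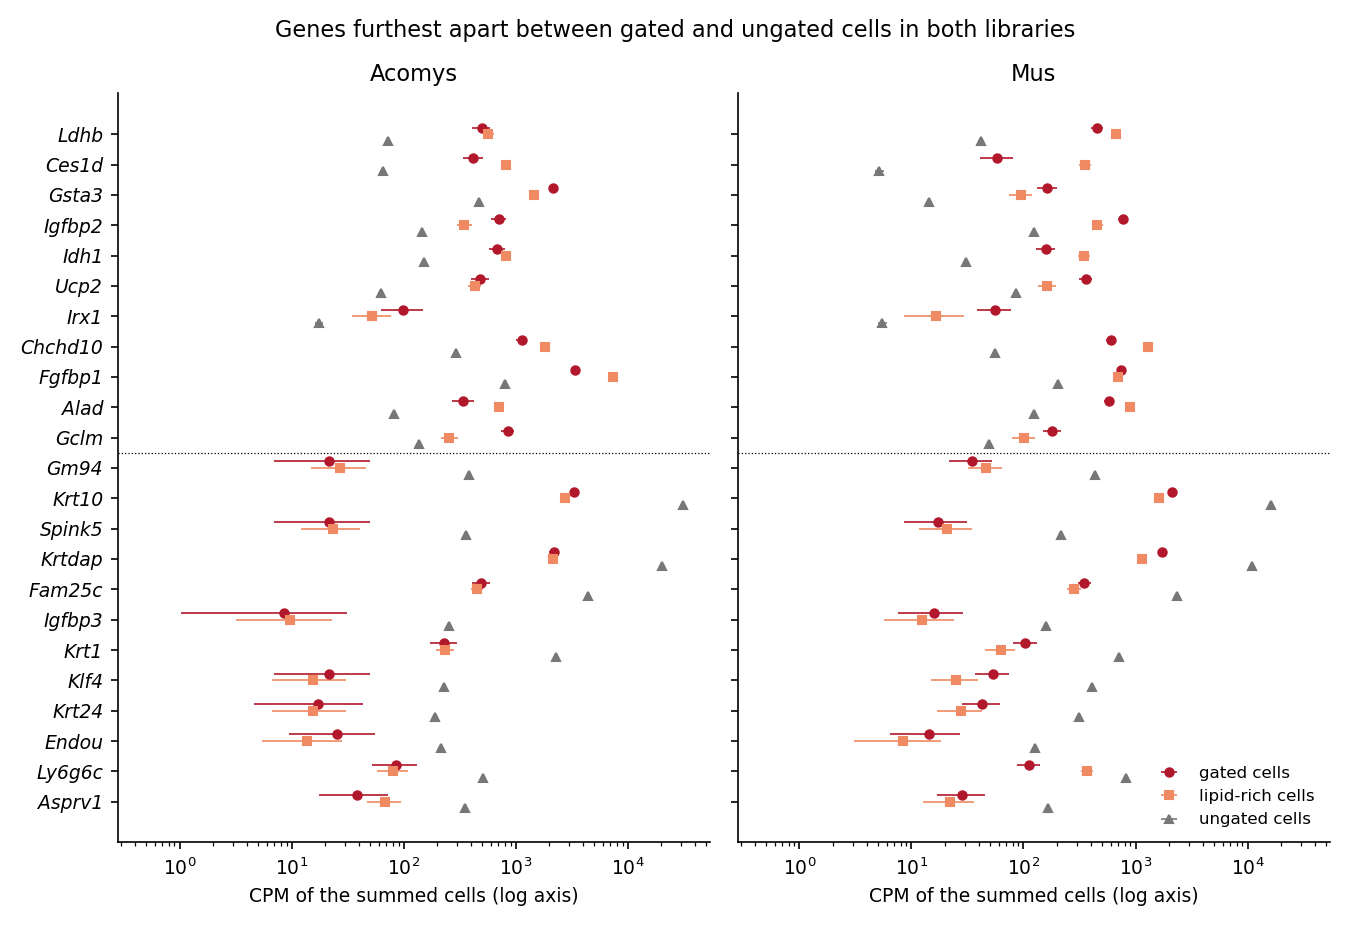
CPM of summed cells (horizontal log axis) for 11 of the 12 genes furthest above and the 12 furthest below ungated cells in both species, with Acomys left and Mus right; circles are gated, squares lipid-rich and triangles ungated cells, and bars are 95% exact Poisson intervals on UMIs. Above the dotted line the gated cells stand to the right of the ungated cells, as for Gsta3 at 2171 against 466 CPM in Acomys, and below it to the left, with lipid-rich cells near the gated ones in most rows.

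The lipid limit alone separates the lipid-rich from the gated cells, so this comparison asks which other genes differed along with the lipid genes. Against lipid-rich cells, 10.1% of 2861 measured genes were higher and 8.25% lower in Acomys gated cells (18.4% in all), and 8.46% of 3417 genes were higher and 10.5% lower in Mus gated cells (18.9% in all). Without ribosomal protein genes 63.5% of the genes called in Mus were higher, against 44.7% with them. Of 1868 genes measured in both, 53 were higher in both species, 37.1% of the Acomys and 39.3% of the Mus genes called higher, and 72 were lower in both. No gene was called in opposite directions.

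The 10 genes furthest below lipid-rich cells in both species included several of sebum making, beside others such as Pex3, Tlcd2 and Tmem159. Elovl3, which lengthens fatty acids in sebaceous and brown fat cells, stood at 47.0 CPM (23.5 to 84.1) in Acomys gated cells, against 3314 CPM in lipid-rich cells, and at 42.6 CPM in Mus gated cells, against 1290 CPM, which is 70.5-fold (39.3 to 142) and 30.3-fold (20.7 to 46.2) lower. In Mus 51.9% of its 27 UMIs came from 1 gated cell. Cidea, a protein that fuses lipid droplets, was 17.3-fold (8.68 to 40.5) lower in Acomys and 11.6-fold (9.79 to 13.7) lower in Mus, and Cers4, a ceramide synthase, 44.1-fold and 9.49-fold lower. Fabp5, a fatty acid carrier, was 9.73-fold and 9.72-fold lower, although 69.0% of its Mus UMIs lay in 1 gated cell. Of the sebum lipid list 6 of 10 measured genes were lower in Acomys and 15 of 20 in Mus, none higher, with median log2 ratios of -2.24 and -2.76, beside 0.05 and 0.04 over all measured genes.

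Of the cholesterol synthesis list, 20 of 21 measured genes were lower in gated than in lipid-rich cells in Mus. Hmgcs1, an early enzyme of the pathway, stood at 169 CPM in Mus gated cells, against 1337 CPM in lipid-rich cells, and Mvd, a later one, at 20.5 CPM, against 527 CPM. In Acomys 5 of 11 were lower, Pmvk, Mvd, Idi1, Cyp51 and Msmo1. The median log2 ratio was -0.89 in Acomys and -3.25 in Mus. Peroxisome genes were lower for 3 of 8 measured in Acomys and 13 of 17 in Mus, with Pex3 and Pex16, which build the peroxisome membrane, lower in both. Fatty acid oxidation, higher than in ungated cells, was lower than in lipid-rich cells for 3 of 14 genes in Acomys and 9 of 17 in Mus, none higher. Gsta3 was not called in this comparison, at ratios of 1.49 (1.33 to 1.67) in Acomys and 1.71 (1.25 to 2.36) in Mus. Gclm was 3.32-fold (2.65 to 4.17) higher than in lipid-rich cells in Acomys and 1.79-fold (1.32 to 2.44) in Mus. The glutathione and NRF2 list as a whole differed between the species here. In Acomys 5 of 17 measured genes were higher and 3 lower, with a median log2 ratio of 0.81. In Mus 3 of 16 were higher and 7 lower, Ces1d among the lower ones, with a median of -0.67.

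The genes furthest above lipid-rich cells in both species were mainly those of dividing cells. Hmgb2, a chromatin protein of cycling cells, stood at 1004 CPM in Acomys gated cells, against 121 CPM, and at 426 CPM in Mus gated cells, against 57.2 CPM. Stmn1, a microtubule regulator, was 5.47-fold (4.25 to 7.10) and 4.72-fold (3.62 to 6.24) higher, and Tk1, a thymidine kinase of S phase, 9.65-fold (3.57 to 32.6) and 11.3-fold (4.91 to 32.1) higher. In the 3 Acomys and 5 Mus cells gated on thinned counts the log2 ratio of Tk1 was -0.89 and -1.23. No Tk1 UMI was counted in those cells, so these values are not measured reversals. The S phase list had 2 of 3 measured genes higher in Acomys and 11 of 12 in Mus, with median log2 ratios of 2.01 and 2.22. The list of G2 and mitosis had 6 of 6 and 3 of 3 higher, of 20 and 22 members with a symbol. All its members together held only 74.0 and 94.8 CPM in lipid-rich cells. A member could therefore hardly be measured unless it was high in gated cells, so these counts were close to set by the filter. The whole list summed to 1098 and 546 CPM in gated cells. The S phase list, under a similar limit, summed to 483 and 1155 CPM, against 129 and 269 CPM in lipid-rich cells. Outside the cycle, Aldh3a1, an aldehyde dehydrogenase, stood at 5000 CPM in Acomys gated cells, against 1266 CPM, and at 372 CPM in Mus gated cells, against 60.0 CPM. Basal genes, lower than in ungated cells, were higher than in lipid-rich cells for 3 of 6 in Acomys and 5 of 10 in Mus, none lower. Krt5, at 2487 and 1354 CPM in gated cells, was at 879 and 565 CPM in lipid-rich cells.

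The UMIs of the mitosis list were concentrated in few of the gated cells. In Acomys 5 of 22 cells held at least 10 UMIs of the G2 and mitosis list, and the highest held 95 of the 257 UMIs. In Mus 7 of 42 held at least 10, and the highest held 81 of 346 UMIs. The S phase list was spread more widely in Mus, with at least 10 UMIs in 21 of 42 cells, against 4 of 22 cells in Acomys. After thinning, 18.2% (5.19 to 40.3%) of Acomys and 16.7% (6.97 to 31.4%) of Mus gated cells held at least 3 UMIs of the G2 and mitosis list. Of the lipid-rich cells 0 of 45 and 0 of 39 did, which allows up to 7.87% and 9.03%. Unthinned, 31.8% and 47.6% of the gated cells did, against 2.22% and 23.1% of the lipid-rich cells. In ungated cells the thinned shares were 8.54% and 10.0%, inside both intervals. For the S phase list they were 18.2% (5.19 to 40.3%) of Acomys and 38.1% (23.6 to 54.4%) of Mus gated cells, against 10.2% and 17.6% of ungated cells, and against 0 of 45 and 2 of 39 lipid-rich cells. Unthinned, 54.5% of Acomys and 76.2% of Mus gated cells held at least 3 S phase UMIs, against 22.2% and 82.1% of lipid-rich cells, so in Mus the order turned without thinning, at median depths of 12784 UMIs in gated and 17602 UMIs in lipid-rich cells. In Mus the S phase share of cells with T cell receptor genes was 29.2% (12.6 to 51.1%), which overlaps that of the gated cells. Against ungated cells, 8 of 13 S phase genes were higher in Mus gated cells, among them Mcm3, Mcm5 and Rrm2, and 0 of 9 mitosis genes. In Acomys 2 of 4 and 7 of 10 were higher. That Acomys mitosis difference lay in few cells: 3 gated cells with at least 20 UMIs each held 208 of the 257 UMIs. Without these 3 cells the list stood at 263 CPM, against 544 CPM in ungated cells. It also turned under another gate. With Pparg and Mgst1 gated at 2 per 10000 UMIs in place of 2 UMIs, the median log2 ratio of the list to ungated cells was -1.02, against 1.20.

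**Figure D3:**
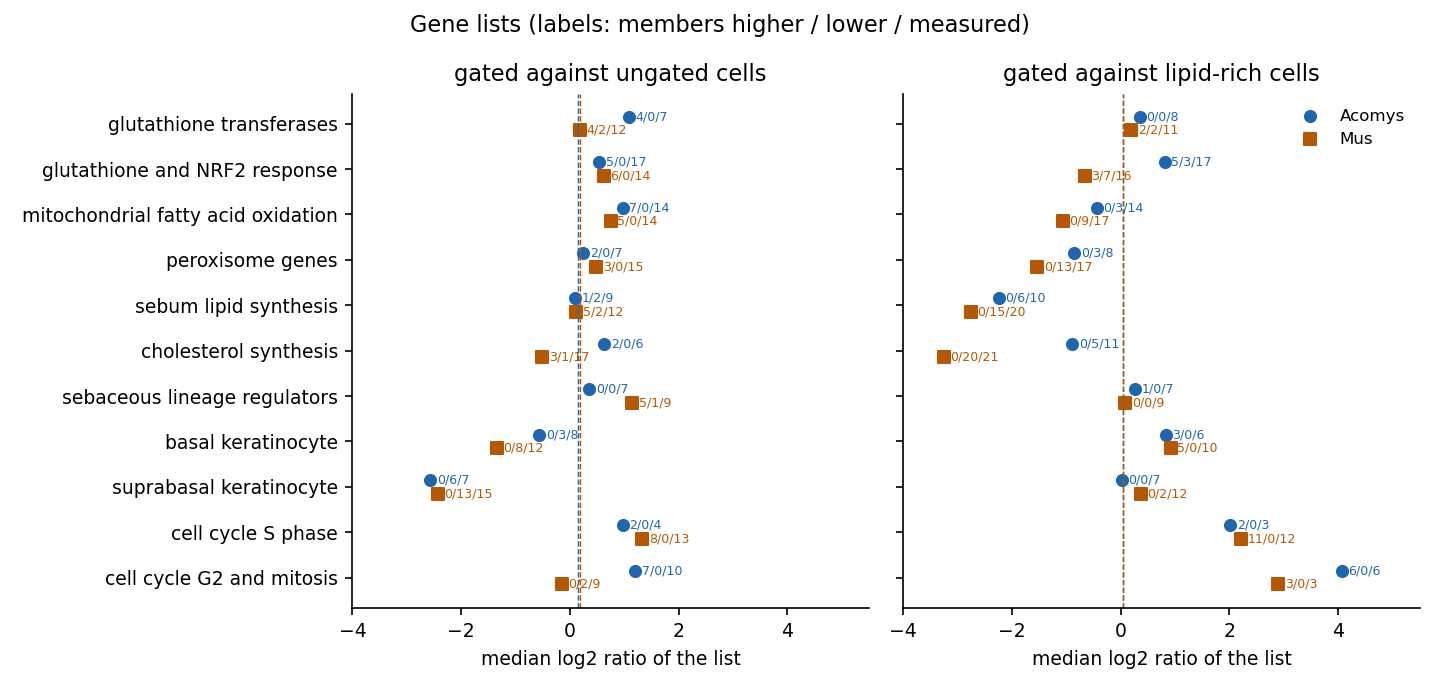
Median log2 ratio of gene lists (horizontal axis) for gated against ungated cells (left) and against lipid-rich cells (right); circles are Acomys, squares Mus, dashed lines the median over all measured genes, and the labels give members higher, lower and measured. Suprabasal genes stand far left of the lines against ungated cells (-2.57 and -2.43) and near them against lipid-rich cells, while sebum and cholesterol genes are low and cycle genes high in the comparison with lipid-rich cells. The cycle medians cover only the members that passed the filter.

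Along the lipid scale the gated cells were not uniform. Cells with Pparg and Mgst1 were split at 3, 5, 10 and 20 lipid gene UMIs per 10000, which gave 5, 6, 11, 5 and 40 Acomys cells and 11, 22, 9, 21 and 18 Mus cells, the first 3 bins being gated cells. Krt5 stood at 3684, 1622, 2349, 1182 and 845 CPM from the lowest to the highest bin in Acomys and at 1371, 1686, 805, 571 and 558 CPM in Mus, so it was lower in every lipid-rich bin than in any gated bin. The cholesterol list stood at 873, 1144, 1836, 10599 and 17556 CPM in Mus. In Acomys it stood at 1338, 1697, 1451, 1841 and 2838 CPM. The largest step in Mus lay between the bins on either side of the gate's limit, but not in the cells nearest it. Mus cells at 10.3, 10.6 and 10.9 lipid gene UMIs per 10000 held 34.1, 10.6 and 45.9 cholesterol list UMIs per 10000. The highest gated Mus cell held 50.2. Cells further up the same bin held more, such as 185 at 18.7. Krt79, a keratin of the upper follicle and sebaceous duct, was highest among the gated cells in the bin nearest the limit, with 1160 CPM in Acomys and 1213 CPM in Mus, against 264 and 314 CPM in the lowest bin. In Acomys 45.9% of the Krt79 UMIs of gated cells were in 1 cell. Gsta3 stood at 1817, 2132, 2396, 2344 and 1356 CPM in Acomys and at 177, 180, 123, 139 and 44.5 CPM in Mus. It was lowest in the cells richest in lipid genes in both species. The bins follow the gate's own genes and hold few cells, so they are a description.

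**Figure D4:**
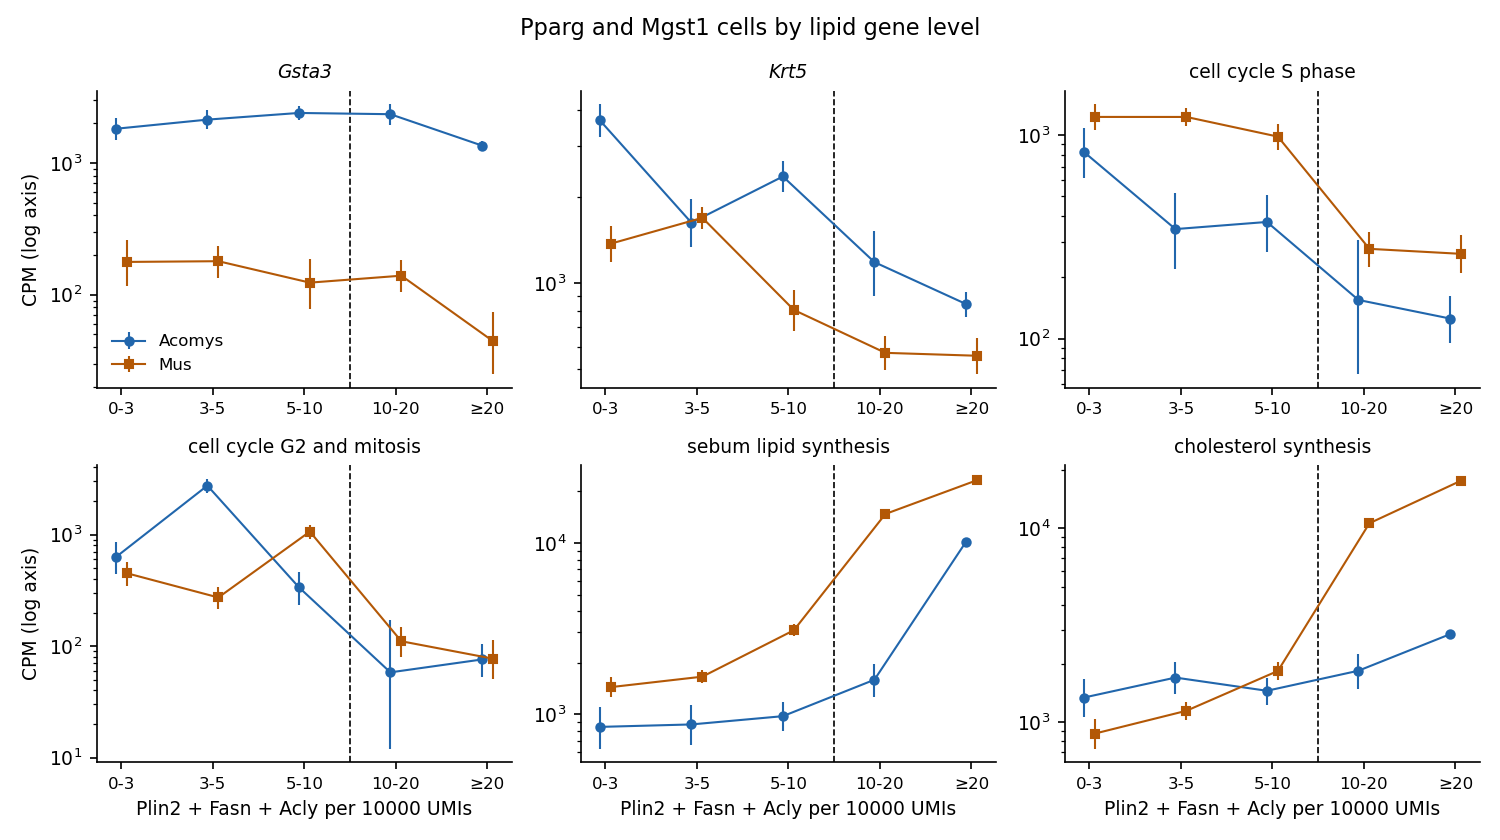
CPM (vertical log axis) in cells with at least 2 Pparg and 2 Mgst1 UMIs, by Plin2, Fasn and Acly UMIs per 10000 (horizontal axis), for Acomys (circles) and Mus (squares), with 95% exact Poisson bars and the gate's limit as a dashed line. Sebum and cholesterol lists are higher right of the line, Krt5 and the cell cycle lists lower, and Gsta3 is lowest in the last bin, with 1356 CPM for Acomys and 44.5 CPM for Mus.

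Acomys and Mus gated cells were compared over 15710 gene symbols present in both gene lists, with levels scaled to 1000000 UMIs of those symbols. Of 3434 measured genes, 13.8% were higher and 31.1% lower in Acomys, 44.9% in all. In ungated cells the same comparison called 14.2% of 3741 genes higher and 24.1% lower, 38.4% in all, so differences between the libraries were common in other cells too. The ratio in ungated cells stands beside several of the ratios here, though not beside that of every gene named. Gsta3 was 12.6-fold higher in Acomys gated cells, but 30.02-fold higher in Acomys ungated cells as well.

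For some genes the ratio of Acomys to Mus differed between gated and ungated cells. Aqp3, a channel for water and glycerol, stood at 900 CPM of shared symbols in Acomys gated cells, against 153 CPM in Mus gated cells, a ratio of 5.88 (4.31 to 8.10), while in ungated cells the ratio was 0.512. Within each library, it was 1.91-fold higher in Acomys gated cells than in ungated cells and 5.90-fold lower in Mus gated cells. Ctsl, a lysosomal protease, was 15.98-fold (11.8 to 22.2) higher in Acomys gated cells, against 2.12-fold in ungated cells. Klf5, a factor of proliferating epithelium, was 7.67-fold (3.65 to 17.6) higher, against a ratio of 0.751. Sox15, Dapl1, Anxa1, Prnp, Sat1 and Cdc42ep5 also had higher ratios in gated than in ungated cells. Cst6, at 4.59-fold against 0.733, had 77.0% of its Acomys UMIs in 1 gated cell, and its ratio turned below 1 under 3 other gates.

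In the other direction, Lcn2, an iron-binding protein of innate defence, stood at 97.8 CPM of shared symbols in Acomys gated cells, against 518 CPM in Mus gated cells, 5.29-fold (3.13 to 9.63) lower, whereas in ungated cells Acomys was 1.71-fold higher. Within the Mus library Lcn2 was 43.7-fold (37.2 to 51.2) higher in gated than in ungated cells, at 320 CPM of all symbols against 7.33 CPM, with 27 of 42 cells holding it. Of its 203 UMIs, 134 lay in 5 cells with at least 20 UMIs each, and without these 5 cells the level was 138 CPM. In Acomys it was 4.74-fold (2.64 to 7.89) higher. Rgcc, a regulator of cell cycle kinase activity, was 3.61-fold (2.75 to 4.81) lower in Acomys gated cells, against 1.31-fold higher in ungated cells. Fam3c was 13.5-fold (3.60 to 114) lower, from only 2 Acomys UMIs. Arhgdib, an inhibitor of small GTPases, was 7.53-fold (3.73 to 17.7) lower. Gating on thinned counts left 3 Acomys and 5 Mus cells. There the log2 ratios of Lcn2, Rgcc and Arhgdib were above 0, at 1.21, 0.12 and 1.09, on 3, 7 and 2 Acomys UMIs. Galk1, Cers4, Map1lc3a, Smpdl3b and Irx4 were lower as well, while S100a8, at 7 Acomys and 30 Mus UMIs, had an interval that included 1 (0.221 to 1.39). Scd1, the main desaturase of mouse sebocytes, had 274 UMIs in Mus gated cells and none in Acomys gated or lipid-rich cells, and stood at 2.37 CPM in Acomys ungated cells. Scd2, of the same family, stood at 107 CPM in Acomys gated cells, against 20.5 CPM in Mus gated cells. It was also at least 2-fold higher in Acomys than in Mus ungated cells. Whether reads of such a family fall on the same symbol in both annotations was not tested, so the 0 does not show that the gene is off.

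**Figure D5:**
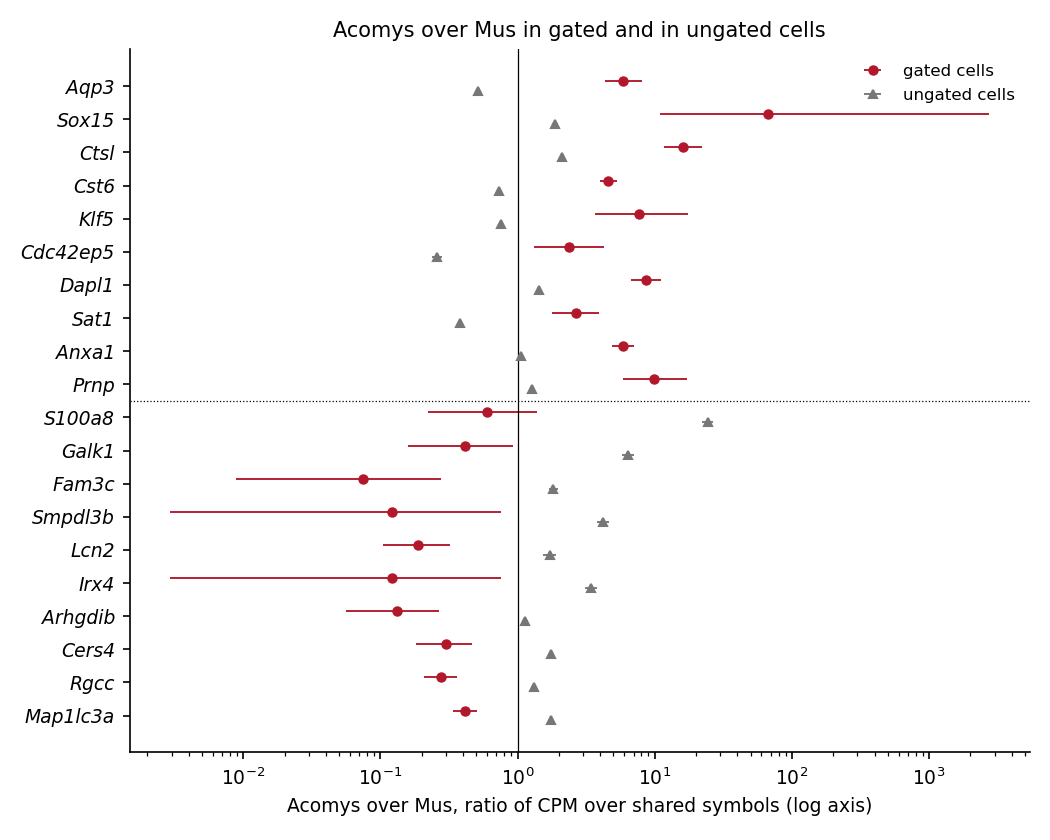
Ratio of Acomys to Mus CPM over shared symbols (horizontal log axis) in gated cells (circles) and ungated cells (triangles), with 95% exact intervals, for the 10 genes whose ratio in gated cells lay furthest above that in ungated cells and the 10 furthest below it. Aqp3 stands at 5.88 in gated and 0.512 in ungated cells, and bars are long where few UMIs were counted, as for Sox15, Smpdl3b and Irx4.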

How the data were processed

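Per the submitters' processing notes, both libraries were processed with Cell Ranger 2.2.0 and the notes name the build mm10. The Acomys gene list differs from the Mus list, and the sources used here do not give its annotation. Both deposited matrices hold unnormalised UMI counts, a row per gene. Acomys holds 71042559 UMIs and Mus 130039670 over all barcodes, and the Acomys list names no mitochondrial gene. The gate, lipid-rich cells and gene lists were chosen with earlier results of these data known.

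UMIs were summed over the cells of a group within a library and scaled to CPM. Ratios carry exact conditional binomial intervals, levels exact Poisson intervals and shares Clopper-Pearson intervals, at 95%, which treat UMIs as independent and leave out variation between cells and animals. No test was made, as there is 1 library per species. Log2 ratios add a prior count of 0.5. Members of the gene lists may be named, and so may genes ranked by the interval bound nearest to 1 in the less extreme library. These were 12 above and 12 below ungated cells and 10 and 10 against lipid-rich cells. For Acomys against Mus, 10 and 10 were ranked by the gated ratio divided by the ungated ratio, each at its bound nearest to the other. The 5 gate genes and ribosomal, histone, MHC and similar families were left out of the rankings. Clusters used 2000 variable genes, 30 components, 20 neighbours and Leiden resolution 1 (scanpy 1.11.5, Python 3.11.15). Doublets were scored with Scrublet, at 0.8% per 1000 cells, and kept. Ratios and intervals were checked on simulated counts with counting error alone, so the check does not cover variation between cells. The alternatives cover gates, depth, doublets, free RNA, scaling and filters. Some members of the lists are not reported here.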

Additional observations from a re-analysis of the deposited data

Results flagged for a closer look

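The gated cells of Acomys and Mus lay on opposite sides of their own ungated cells for 4 genes of the lists. Each log2 ratio was at least 1 in size (prior count 0.5), with an interval that left out a ratio of 1. Among all 1956 genes measured in both, 5 were higher in Acomys and lower in Mus and 4 the reverse. The difference between the species was not tested. The log2 ratio of gated to ungated cells of Ctsl, a lysosomal protease, was 1.58 in Acomys and -1.30 in Mus. All 22 Acomys gated cells held Ctsl, against 24 of 42 Mus gated cells. The log2 ratio of Dcn, a matrix protein of fibroblasts, was -1.37 in Acomys and 1.24 in Mus, where 88.9% of its UMIs came from the 1 gated cell rich in fibroblast markers. Without that cell the Mus log2 ratio of Dcn was -1.87, on the same side as in Acomys. Mvd, an enzyme of the mevalonate pathway, had log2 ratios of 1.15 in Acomys and -1.08 in Mus, on 32 and 13 UMIs. Ube2c, an enzyme of mitotic exit, had log2 ratios of 1.02 in Acomys and -1.20 in Mus, and 13 of its 26 Acomys UMIs lay in 1 cell. The direction of each of the 4 in Mus, and of Ube2c in Acomys, turned under at least 1 other gate.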

How the results depend on the processing

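No paired analysis was possible because each species has 1 library and no replicate numbers. Over 19 alternatives, 1841 recomputed gene ratios stayed within their main interval, 334 moved and 29 reversed, and 1538 list medians stayed on the same side of 2-fold, 181 moved and 3 reversed. The share of gated cells followed the UMI gate most: at 1 UMI it was 2.63% in Acomys and 1.72% in Mus, at 3 UMIs 0.167% and 0.287%, and gated on thinned counts 0.0627% and 0.0651% (3 and 5 cells). It was 0.391% in Mus with a gate of 2 per 10000 UMIs, 0.230% in Acomys with a lipid limit of 5 and 0.821% in Mus with one of 20. The number of genes at least 2-fold apart followed the filter: with 5 UMIs and no CPM minimum it was 6759 in Acomys and 6727 in Mus against ungated cells, 1699 and 2642 against lipid-rich cells and 3852 for Acomys against Mus, and with a mean of 100 CPM, added after seeing the data, 169, 219, 166, 250 and 523, beside 473, 687, 526, 647 and 1541. At 1 UMI it was 217 and 428 against ungated cells, at 3 UMIs 786 in Acomys against ungated cells and 935 for Acomys against Mus, at 2 per 10000 941 for Acomys against Mus, and on thinned counts 2056, 1393, 55, 83 and 112. Centring on genes of at least 50 CPM, which lowered the median log2 ratio against ungated cells to 0.01 in Acomys and -0.01 in Mus, made 36.7% and 33.4% of the called genes higher, against 49.5% and 49.5%. Without ribosomal protein genes 63.5% of those called against lipid-rich cells in Mus were higher, against 44.7%. Reversals under gating on thinned counts (log2) were Arhgdib at 1.09, Lcn2 at 1.21, Rgcc at 0.12 and Cst6 at -0.33 for Acomys against Mus, on 2, 3, 7 and 9 Acomys UMIs. Against lipid-rich cells they were Birc5 at -2.48 and Ccna2, Ccnb1, Cdc20 and Tk1 at -0.89 each in Acomys, and Cdc20 and Tk1 at -1.23 and Awat1 at 0.36 in Mus. Each of these values against lipid-rich cells rested on no UMI in the gated cells, so it is not a measured reversal. The bulge list was at 0.65 in Acomys against ungated cells. Cst6 was at -0.23 at 3 UMIs and -0.33 at 2 per 10000. At 2 per 10000 Ccnb1 in Acomys was at -1.57 against lipid-rich cells, with no UMI in gated cells, and the mitosis list at -1.02 against ungated cells. That list was at -1.09 for Acomys against Mus at 1 UMI. With a lipid limit of 5, Ccna2 was at -0.32 and Ccnb1 at -0.18 in Mus. With one of 20 Awat1 in Mus was at 0.61, on 43 UMIs, while it has no UMI in Mus cells of the main gate. Against ungated cells, Dcn in Mus was at -1.87 without the fibroblast-marked cell, -1.87 with a mitochondrial limit of 10%, -0.18 at 1 UMI and -2.24 at 3 UMIs. On thinned counts Ctsl in Mus was at 0.39 on 12 UMIs and Mvd in Mus at 0.50 on 3 UMIs. Mvd in Mus was at 1.69 with a lipid limit of 20. Ube2c was at -0.12 in Acomys and 1.02 in Mus at 1 UMI. In Acomys Ube2c was at -1.06 at 2 per 10000 and -0.86 on thinned counts, where it had no UMI. The causes were not tested. With 22 and 42 cells, genes of few UMIs carry wide intervals, and leaving out the fibroblast-marked cell reversed Dcn alone among the recomputed values.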

Other observations

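Of the steroid list, 1 of 2 measured genes was higher than in ungated cells in Acomys and 3 of 6 in Mus, none lower, and of the defence list 2 of 4 were higher and 2 lower in Acomys and 2 of 4 higher and 1 lower in Mus. Hsd11b1, which makes active glucocorticoid, had 43 UMIs in 23 of the 42 Mus gated cells, at 67.9 CPM, against 5.58 CPM in lipid-rich cells and 2.23 CPM in ungated cells, 30.4-fold (21.4 to 42.3) above the ungated cells. It had no UMI in the 22 Acomys gated cells and 0.592 CPM in Acomys ungated cells. Akr1c18, a steroid-converting enzyme, stood at 1633 CPM in Acomys gated cells, against 569 CPM in ungated cells, and at 140 CPM in Mus gated cells, against 9.17 CPM. Slpi, a protease inhibitor of mucosal defence, stood at 64.1 CPM in Acomys gated cells, against 25.1 CPM, and at 91.5 CPM in Mus gated cells, against 12.9 CPM, with 40.0% of the Acomys and 32.8% of the Mus UMIs in 1 cell.

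Cyp1a1, a target of the aryl hydrocarbon receptor, had 143 UMIs in 19 of the 22 Acomys gated cells, at 611 CPM, against 361 CPM in Acomys ungated cells. It had no UMI in the 42 Mus gated cells and stood at 0.558 CPM in Mus ungated cells, so the difference between the libraries was present in both groups of cells. Crabp2, a carrier of retinoic acid, was lower in both, at ratios of 0.141 and 0.243 to ungated cells.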
